A study of Mus musculus with 2 samples.

Results

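The genes of MHC class I presentation were followed across the immune cells of visceral adipose tissue (VAT) in wildtype C57BL/6 mice aged 15 weeks. The 10 genes were fixed by name (H2-K1, H2-D1, B2m, Tap1, Tap2, Tapbp, Psmb8, Psmb9, Nlrc5 and Erap1) out of 26981 genes listed in the 2 gene tables, and all 10 were found in both. CD45+ cells were enriched with magnetic beads, and 1 library of single cells came from mice on normal water (NW) and 1 from mice on antibiotics (ABX). The study describes the ABX treatment as drinking water with ampicillin, vancomycin, streptomycin and colistin, and the number of mice behind each library is not given in the sources used here. With 1 library per condition no difference between NW and ABX could be tested, so values are given with intervals that cover counting error only.

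MHC class I molecules carry peptides from inside the cell to its surface, where CD8+ T cells and NK cells read them. The proteasome cuts proteins into peptides, and the interferon-induced subunits encoded by Psmb8 and Psmb9 replace constitutive ones to form the immunoproteasome. The peptides enter the endoplasmic reticulum through the transporter made of Tap1 and Tap2, are trimmed by the aminopeptidase Erap1, and are loaded with the help of tapasin (Tapbp) onto a heavy chain such as H2-K1 or H2-D1 paired with the light chain B2m. Nlrc5 is a transactivator of MHC class I genes. Nearly all nucleated cells express class I, so none of the cell types below should lack it.

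In the GENCODE M21 annotation of GRCm38, 7 of the 10 genes lie on chromosome 17. H2-K1 spans chr17:33996017-34000347 on the minus strand and H2-D1 spans chr17:35262730-35267499 on the plus strand. Between them lie Psmb9, at chr17:34181987-34187764 on the minus strand, and Tap1, at chr17:34187553-34197225 on the plus strand, followed by Psmb8 at chr17:34197721-34201454 and Tap2 at chr17:34203527-34216321, both on the plus strand. Tapbp lies at chr17:33915899-33929292, B2m at chr2:122147686-122153083, Nlrc5 at chr8:94434356-94527272 and Erap1 at chr13:74639568-74693201, all on the plus strand. All are protein coding, with at most 4 exons in a transcript of B2m and at most 8 in one of H2-K1 or H2-D1.

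Promoter windows of 8 of the 10 genes were read from RefSeq (GRCm38.p6, from 250 bases before to 50 bases after the transcription start). Tap2 and Nlrc5 had no entry, and of the 2 entries of H2-K1 the first was used. The windows below are shown because these genes differed in how they varied between cell types and with interferon-stimulated genes, and capitals mark every match, on either strand, to the letters of 5 motifs. These were the interferon-stimulated response element (GAAA, 2 bases of any kind, GAAA), the kappa B site (GGG, 2 bases of any kind, TTCCC), the CCAAT box, the X2 half-site TGACG and the gamma-activated site TTCNNNGAA, with N for any base. The windows are chr17:34000298-34000597 (minus strand) for H2-K1, chr17:35262844-35263143 for H2-D1, chr2:122147437-122147736 for B2m, chr17:34187306-34187605 for Tap1 and chr13:74639603-74639902 for Erap1, the last 4 on the plus strand.
H2-K1: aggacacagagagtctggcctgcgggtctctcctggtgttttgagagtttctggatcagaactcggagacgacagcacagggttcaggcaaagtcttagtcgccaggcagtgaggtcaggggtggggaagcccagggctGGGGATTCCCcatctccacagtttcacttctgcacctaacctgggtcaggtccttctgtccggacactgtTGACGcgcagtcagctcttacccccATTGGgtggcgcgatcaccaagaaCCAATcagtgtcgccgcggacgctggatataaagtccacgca
H2-D1: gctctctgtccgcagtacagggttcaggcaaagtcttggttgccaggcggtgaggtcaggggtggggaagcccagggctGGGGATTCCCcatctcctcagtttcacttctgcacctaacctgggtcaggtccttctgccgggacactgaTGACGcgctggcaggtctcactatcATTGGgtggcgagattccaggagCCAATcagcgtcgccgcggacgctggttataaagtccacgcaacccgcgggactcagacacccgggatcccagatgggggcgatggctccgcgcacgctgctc
B2m: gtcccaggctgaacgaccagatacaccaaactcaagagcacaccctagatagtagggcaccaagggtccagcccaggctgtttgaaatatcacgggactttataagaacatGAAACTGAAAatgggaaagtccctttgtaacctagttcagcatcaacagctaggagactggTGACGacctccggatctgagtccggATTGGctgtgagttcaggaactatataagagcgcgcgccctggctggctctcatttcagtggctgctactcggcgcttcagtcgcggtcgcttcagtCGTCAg
Tap1: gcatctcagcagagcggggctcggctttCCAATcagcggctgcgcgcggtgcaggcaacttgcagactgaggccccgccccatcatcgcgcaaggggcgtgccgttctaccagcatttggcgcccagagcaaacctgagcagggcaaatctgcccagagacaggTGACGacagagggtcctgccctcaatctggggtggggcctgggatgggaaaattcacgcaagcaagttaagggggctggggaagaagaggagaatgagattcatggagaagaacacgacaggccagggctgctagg
Erap1: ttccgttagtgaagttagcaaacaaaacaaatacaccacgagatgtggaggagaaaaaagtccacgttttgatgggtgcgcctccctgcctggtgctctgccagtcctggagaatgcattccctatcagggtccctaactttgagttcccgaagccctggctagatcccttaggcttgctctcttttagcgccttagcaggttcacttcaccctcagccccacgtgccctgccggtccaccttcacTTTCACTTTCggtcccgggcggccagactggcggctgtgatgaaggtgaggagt

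The same spacing recurred in the windows of the class I chains, at different distances from the stated start. The kappa B match began 111 bases before that start in H2-K1 and 171 bases before it in H2-D1. The kappa B match began 70 bases before the X2 match in both H2-K1 and H2-D1, and the X2 match began 25 bases before a CCAAT box, read as ATTGG, in H2-K1, H2-D1 and B2m alike. A response element match was found in B2m, 139 bases before the start, and in Erap1, where it began 4 bases before the start. The Tap1 window shares 275 bases with that of Psmb9, which is read in the opposite direction. Over 27025 promoters of the same length, 3.49% held the response element, 1.66% the kappa B site, 37.9% the CCAAT box, 21.0% the X2 half-site and 8.47% the gamma-activated site, and of the 8 windows of these genes 2, 2, 6, 5 and 1 held them. The CCAAT box and X2 matches of Tap1 and Psmb9 are the same bases read on opposite strands, so these 2 windows are not separate in those counts. The 2 windows with a kappa B site are those of H2-K1 and H2-D1. Matches are letters in these windows and were not tested as binding sites. Elements that depart from these letters are not marked, so a window without a match may still hold one.

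After removal of cells with under 500 UMIs, under 200 genes or over 25% mitochondrial UMIs, 12474 NW and 12724 ABX cells remained, with medians of 5092 and 3846 UMIs per cell. Clusters were made without these 10 genes or related pathway genes among the variable genes and named from marker genes, which gave 15 cell types with at least 50 cells in each library, from 5640 NW and 4872 ABX macrophage-like cells to 62 and 56 neutrophil-like cells. Unnamed clusters held 12.3% of NW and 13.4% of ABX cells. Ptprc, the gene of CD45, was detected in 79.9% (NW) and 75.4% (ABX) of all cells but in only 28.4% and 26.8% of endothelial-like cells, which a CD45 selection should remove. C1qa, a macrophage complement gene, stood in the other 14 cell types at 2.32% to 22.9% of its macrophage-like level, highest in CD8+ T-like and CD4+ T-like cells, and its part in the values of those cell types was not tested unless stated. In all, 196 cell barcodes occurred in both libraries and 33 of these had the same cell type in both, against 41.6 from the libraries' cell type shares.

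As a share of UMIs, the class I heavy chains were highest in Treg-like cells by the mean of both libraries. They were high in the other T, NK, ILC2-like and mature DC-like cells, while B cell-like and plasma cell-like cells stood low. A low share need not be few UMIs per cell. Median depth was 13743.5 (NW) and 11469.5 (ABX) UMIs in plasma cell-like cells, against 3275 and 2591 in Treg-like cells. H2-K1 was highest in Treg-like cells, at 5238 CPM (UMIs per 1000000 UMIs of that cell type) in NW and 5543 in ABX, and was next in NK-like, NKT-like, ILC2-like and gdT-like cells, between 3902 and 4690 CPM. H2-K1 stood at 1180 and 1325 CPM in macrophage-like cells, 1067 and 1204 in cDC1-like cells and 861 and 1299 in neutrophil-like cells, so that the highest cell type exceeded the lowest 4.99-fold by the mean of both libraries. H2-D1 had a flatter order: 5889 and 4871 CPM in Treg-like cells, 4605 and 4547 in neutrophil-like cells, 2940 and 2900 in macrophage-like cells and 1811 and 2213 in plasma cell-like cells, a range of 2.67-fold. Treg-like cells led for H2-D1 in NW only. ILC2-like cells (4849 and 5205 CPM), mature DC-like cells (4635 and 4981) and gdT-like cells (4638 and 4891) stood above them in ABX. Neutrophil-like cells were thus among the lowest for H2-K1, with cDC1-like cells below them in ABX, and near NK-like cells for H2-D1. B cell-like cells stood at 1726 and 1886 CPM of H2-K1 and 2281 and 2241 of H2-D1. Of the 14 pairs of neighbouring cell types in the order, 9 for H2-K1 and 10 for H2-D1 overlapped in their 2 library values and cannot be ranked against each other. Both genes share near-identical stretches with other class I loci, so how reads were divided among them is uncertain.

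B2m, the light chain of every class I molecule, followed another order. It was highest in mature DC-like cells, at 6233 CPM in NW and 6340 in ABX. By the mean of both libraries Treg-like cells came next, at 5034 and 4734, then plasma cell-like cells at 3995 and 4678. Plasma cell-like cells overlapped NK-like cells (4354 and 4061). In NW they stood below NK-like, NKT-like, ILC2-like, gdT-like and CD4+ T-like cells. B2m was lowest in cDC1-like cells, at 1749 and 1778 CPM, with cDC2-like cells at 2010 and 2112 just above. The dendritic cell types therefore held both ends of the B2m order in CPM, 3.57-fold apart, and this held in each library. This is an order of shares and not of UMIs per cell. Median depth was 8312 (NW) and 7582.5 (ABX) UMIs in cDC1-like cells, against 1839 and 1505 in neutrophil-like cells.

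**Figure D1:**
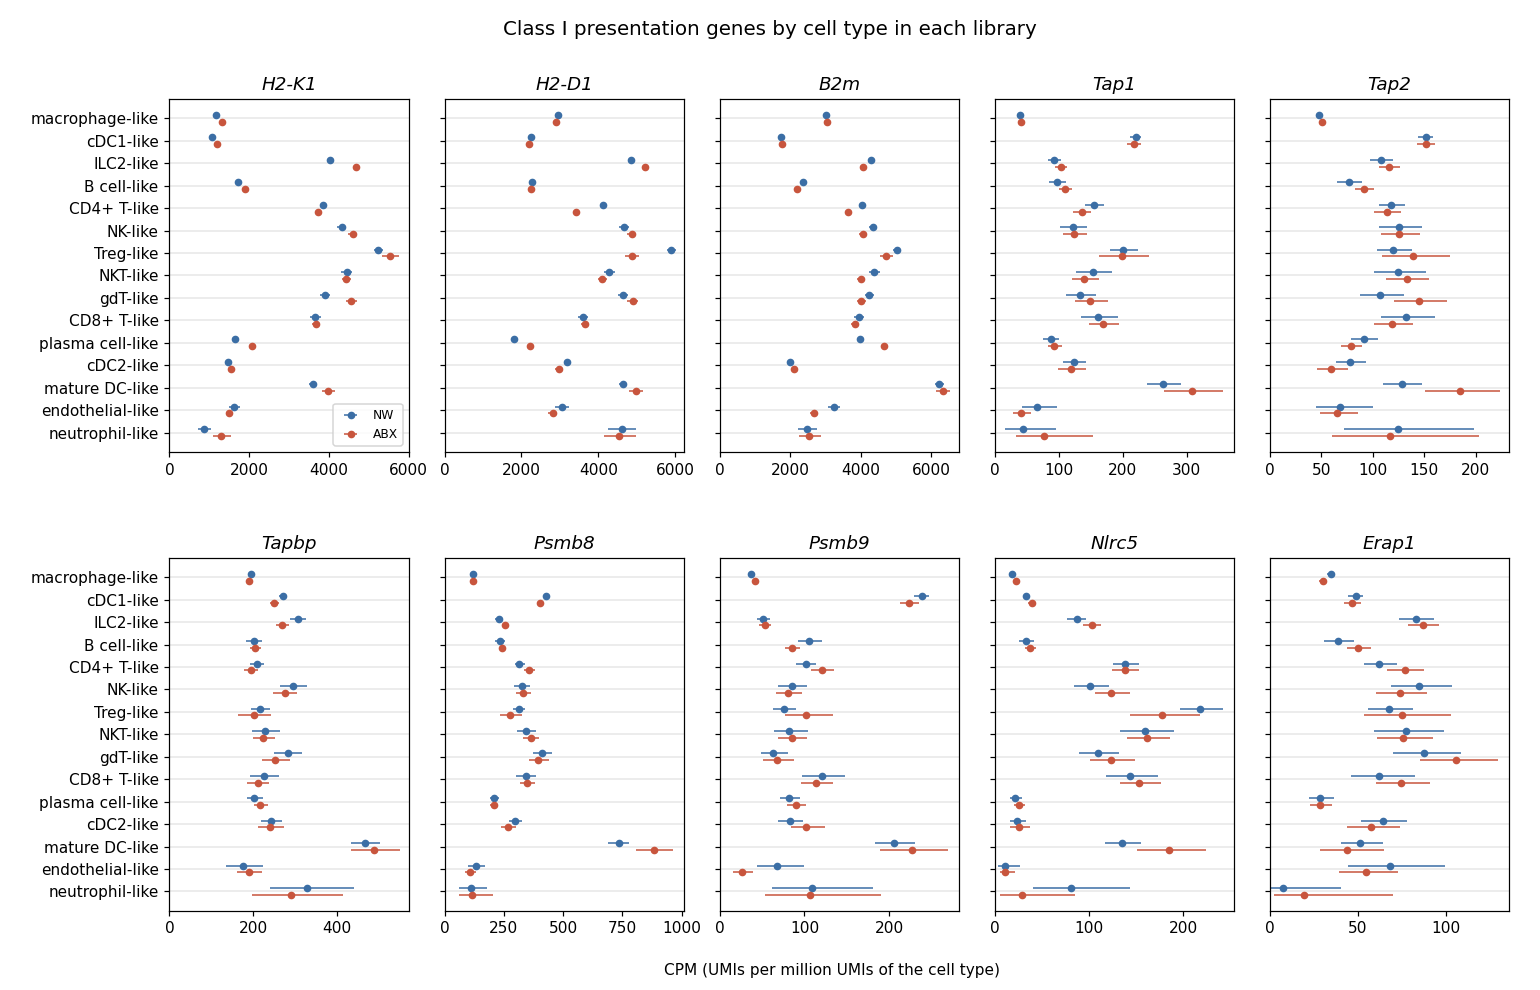
Each panel plots 1 gene, with CPM (UMIs per 1000000 UMIs of the cell type) on the horizontal axis and the 15 cell types, ordered by cell number, on the vertical axis. Points are the NW (blue) and ABX (red) libraries and bars are exact Poisson 95% intervals of counting error. The 2 libraries sit close together in most rows, while H2-K1 ranges from 861 to 5543 CPM across cell types.

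The peptide supply genes were highest by mean in mature DC-like or cDC1-like cells, but not in cDC2-like cells. Tap1 reached 263 CPM in NW and 308 in ABX mature DC-like cells and 220 and 217 in cDC1-like cells, against 38.9 and 41.5 in macrophage-like cells, the lowest by mean, 7.10-fold below the highest. Tap2 had the same ends by mean, 128 and 185 CPM in mature DC-like cells and 47.8 and 50.1 in macrophage-like cells, but cDC1-like cells, at 151 and 152, were highest in NW, and 11 of its 14 neighbouring pairs overlapped. Psmb8 stood at 734 and 883 CPM in mature DC-like cells, 426 and 403 in cDC1-like cells and 119 and 120 in macrophage-like cells. Psmb9 was highest in cDC1-like cells by mean, at 238 and 224 CPM, overlapping mature DC-like cells at 206 and 227, and stood at 36.8 and 41.3 in macrophage-like cells. In cDC2-like cells Tap1 stood at 123 and 120 CPM, Tap2 at 77.9 and 59.4, Psmb8 at 296 and 267 and Psmb9 at 82.5 and 102. cDC1 are known for cross-presenting antigen on class I. Here, by mean CPM, cDC1-like cells combined the lowest B2m and the next to lowest H2-K1 and H2-D1 with the highest Psmb9. Their Tap1, Tap2 and Psmb8 were next to highest. These are shares of the UMIs of the cell type and not UMIs per cell.

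The loading factor Tapbp varied less, from 467 and 489 CPM in mature DC-like cells to 176 and 189 in endothelial-like cells, a range of 2.62-fold. Erap1 was highest in gdT-like cells, at 87.8 CPM in NW and 106 in ABX, with ILC2-like cells at 83.0 and 87, and stood at 34.7 and 30.3 in macrophage-like cells. Neutrophil-like cells held only 1 and 2 Erap1 UMIs. Nlrc5 had the widest range, 18.3-fold, from 218 and 177 CPM in Treg-like cells and 160 and 162 in NKT-like cells to 18.6 and 22.3 in macrophage-like cells and 10.5 and 11.1 in endothelial-like cells, which held 4 and 9 UMIs. cDC1-like cells, with their high Tap1 and Psmb9, stood at 32.8 and 39.4 CPM of Nlrc5, while mature DC-like cells stood at 135 and 185.

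Depth differed between cell types, so shares of cells with a UMI were also read after thinning each cell to 1000 UMIs. Among macrophage-like cells, Tap1 was detected in 17.9% (NW) and 13.7% (ABX) before thinning and in 3.84% and 3.59% after it. In cDC1-like cells the same shares were 72.4% and 66.9% before and 18.9% and 18.5% after. The gap between the cell types remained at equal depth and the gap between the libraries nearly closed. Among single macrophage-like cells of the NW library, H2-K1 ranged from 3.78 UMIs per 10000 at the 10th percentile to 10.6 at the median and 22.6 at the 90th percentile, and in the ABX library from 3.37 to 11.4 and 25.9.

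The cell type order of 3 genes was set against all 9553 other genes with at least 1000 UMIs, by Pearson r of log2(CPM + 1) over 30 points, 15 cell types in each of 2 libraries; points of 1 library share its depth and those of 1 cell type its markers. The genes most like H2-K1 were H2-Q7 (r = 0.96), H2-Q6 (r = 0.94), Socs2 (r = 0.91), H2-T22 (r = 0.90) and Il7r (r = 0.90), of which 3 are class I heavy chains of other loci. Those most like Tap1 were Psmb8 (r = 0.93), H2-T23 (r = 0.87), P2ry10 (r = 0.85), Rpsa (r = 0.84) and Btf3 (r = 0.84). Those most like Nlrc5 were Gbp8 (r = 0.88), Stat4 (r = 0.88), H2-Q7 (r = 0.85), Crebl2 (r = 0.85) and Kif21b (r = 0.85). Among the 10 genes, Nlrc5 ranked 25th of all genes in likeness to H2-K1 (r = 0.83), while Psmb9 had no likeness to it (r = 0.01).

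The comparison of ABX with NW asked whether loss of gut bacteria went with a different level of these genes in VAT immune cells. Over all cells, H2-K1 stood at 1777 CPM in NW and 2151 in ABX, a log2 ratio of 0.28 (95% interval 0.26 to 0.29), and Nlrc5 stood at 44.2 and 53.8, a log2 ratio of 0.28 (0.21 to 0.35). The other 8 genes had log2 ratios between -0.06 (Tapbp) and 0.13 (Tap2), and H2-D1 (-0.02) and B2m (0.00) were near 0. A gene with at least 100 UMIs was called where its log2 ratio reached 0.32 in size, that is 25% higher or 20% lower in ABX. None of the 10 was called over all cells, against 26.1% of 13356 genes called in either direction. Over the 15 named cell types alone, with ABX weighted to their NW shares of UMIs, H2-K1 had a log2 ratio of 0.14 and Nlrc5 of 0.15. These values leave out unnamed clusters and smaller types, so they differ from the all-cell values in cells as well as weights. The part of cell type makeup in the all-cell values was not tested separately.

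Within cell types, 137 of the 150 gene and cell type pairs had at least 100 UMIs over both libraries. Of these 137 pairs, 8 were called, 7 of them higher and 1 lower in ABX, and 129 were not, and over all genes 22.2% of 76791 such pairs were called in either direction. Without the 5% of cells with the highest doublet scores, 11 pairs were higher and 5 lower. The median log2 ratio of the 137 pairs was 0.02, with an interval above 0 in 29 pairs, below 0 in 21 and including 0 in 87. In macrophage-like cells none of the 10 genes was called, against 17.1% of all genes there, and in cDC1-like cells none was, against 12.8%. The intervals of counting error were narrow for H2-K1, H2-D1 and B2m and wide for the other genes, as the plot of ratios shows.

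**Figure D2:**
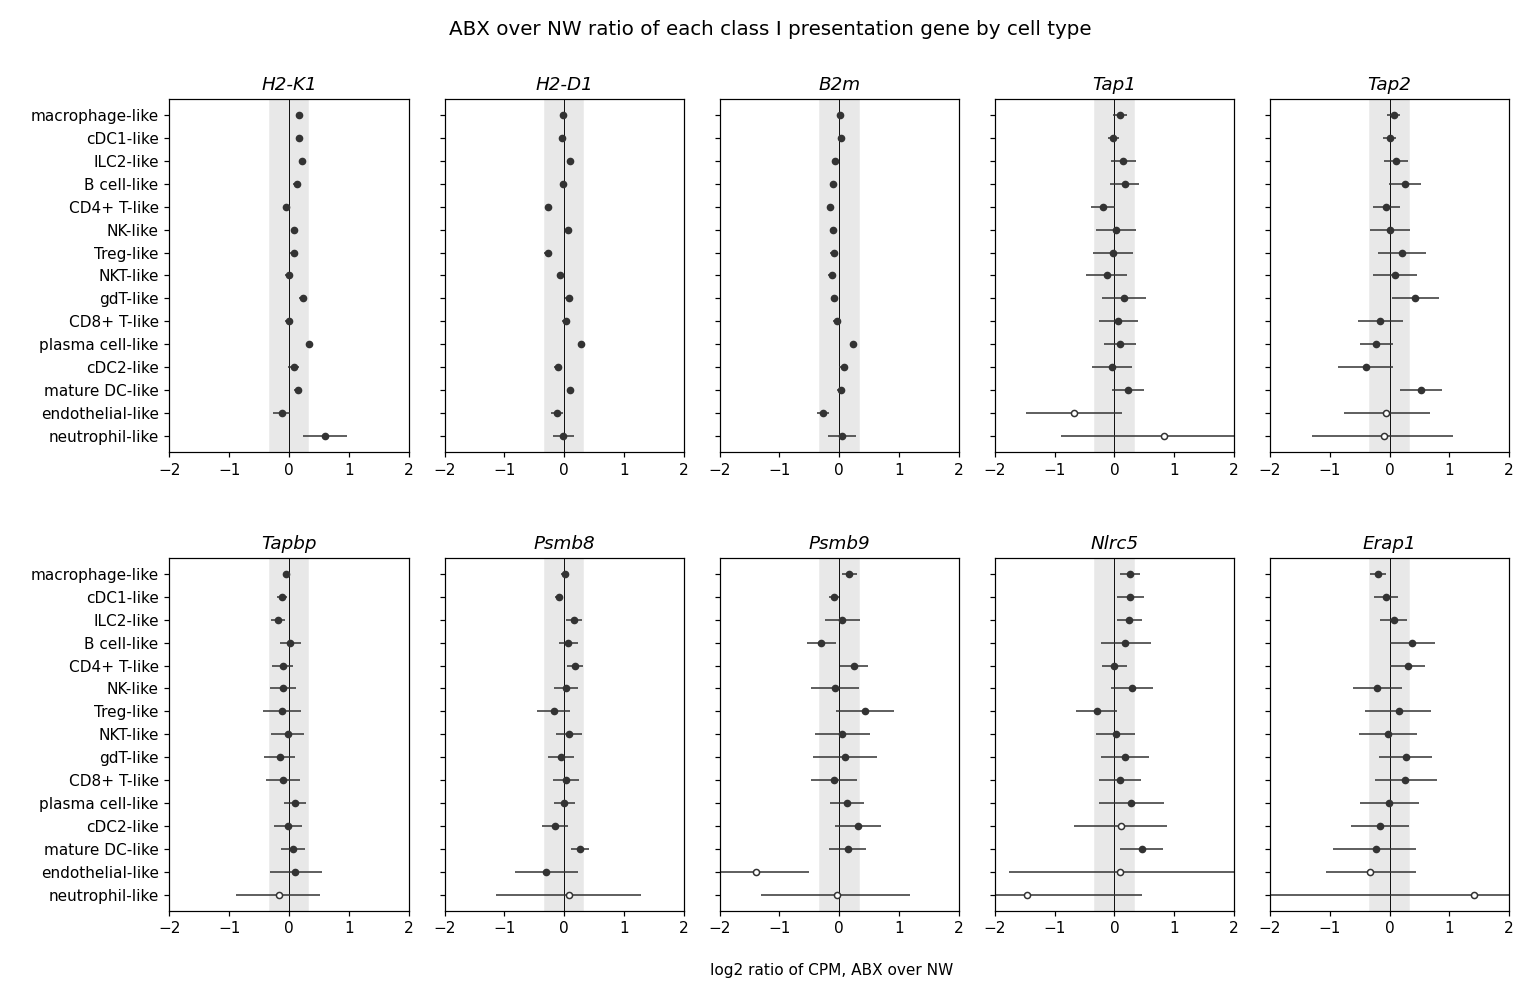
Each panel plots 1 gene, with the log2 ratio of CPM (ABX over NW) on the horizontal axis and the 15 cell types on the vertical axis. Points are ratios with 95% intervals of counting error, the grey band marks ratios too small to be called, open points had under 100 UMIs, and bars that run past the axis are clipped. Most points lie in the band, and H2-K1 lies to the right of 0 in 12 of 15 cell types.

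H2-K1 leaned to ABX in most cell types. Its log2 ratio was above 0 in 12 of 15, with 0.17 (0.14 to 0.19) in macrophage-like cells, 0.17 (0.13 to 0.21) in cDC1-like cells, 0.22 (0.18 to 0.25) in ILC2-like cells and 0.23 (0.16 to 0.29) in gdT-like cells. The macrophage-like clusters differed in share between the libraries, as given below. The ILC2-like cells lay in different clusters, the one led by Hilpda, Arg1 and Ccr8 making up 47.5% of them in NW and 15.7% in ABX, and the one led by Rnf128, Calca and Il1rl1 13.6% and 33.3%. H2-K1 was called in plasma cell-like cells, at 1636 and 2071 CPM (log2 ratio 0.34, interval 0.28 to 0.40), where 15.9% of all genes were called higher. It was also called in neutrophil-like cells, at 861 and 1299 CPM on 118 and 134 UMIs (0.59, 0.23 to 0.96), where 17.4% of genes were. CD4+ T-like cells (-0.04), NKT-like cells (-0.00) and endothelial-like cells (-0.12) were the exceptions. H2-D1 and B2m did not share this lean, with ratios above 0 in 6 of 15 cell types each. In plasma cell-like cells all 3 chains were higher in ABX as shares of UMIs, H2-D1 by 0.29 and B2m by 0.23 on the log2 scale. Shares are not UMIs per cell, and median depth there was 13743.5 UMIs in NW and 11469.5 in ABX. The part of this depth difference in the ratios was not tested. The 2 plasma cell clusters differed in share between libraries, the one led by Ighg2b making up 62.2% of these cells in NW and 45.0% in ABX.

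The CD4+ T-like and Treg-like cells went the other way for H2-D1. H2-D1 stood at 4126 CPM in NW and 3412 in ABX CD4+ T-like cells (log2 ratio -0.27, interval -0.31 to -0.23) and at 5889 and 4871 in Treg-like cells (-0.27, -0.34 to -0.21), both short of a call. H2-K1 in the same Treg-like cells was 0.08 (0.02 to 0.14), and the 2 heavy chains thus differed in direction there. Treg-like cells numbered 409 in NW and 172 in ABX, and the cluster led by Foxp3, Ctla4 and Frmd5 made up 81.4% of them in NW and 59.3% in ABX. Of the CD4+ T-like cells, the cluster led by Nsg2, Lef1 and Dapl1 made up 6.94% in NW and 20.8% in ABX and the one led by Cd4, Slfn1 and Cd5 35.5% and 20.3%. In CD4+ T-like cells the C1qa level was 17.1% and 16.1% of that in macrophage-like cells. The 10 genes summed had a log2 ratio of -0.14 in these cells, and of -0.16 without those with over 2 C1qa UMIs per 10000.

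The remaining called pairs each rested on at most 212 UMIs in a library. Tap2 was higher in ABX mature DC-like cells, at 128 and 185 CPM on 189 and 105 UMIs (log2 ratio 0.53, interval 0.17 to 0.88), and in gdT-like cells, at 107 and 145 CPM (0.43, 0.05 to 0.82). Tap2 was lower in cDC2-like cells, at 77.9 and 59.4 CPM, with an interval that included 0 (-0.39, -0.86 to 0.07). Nlrc5 was higher in mature DC-like cells, at 135 and 185 CPM (0.46, 0.10 to 0.80), Erap1 in B cell-like cells, at 38.5 and 50.1 CPM (0.38, 0.00 to 0.77), where 2 clusters led by Vpreb3 made up 7.87% and 5.08% of the cells in NW and 1.81% and 0.427% in ABX, and Psmb9 in Treg-like cells, at 75.7 and 102 CPM with an interval that included 0 (0.43, -0.06 to 0.91). Mature DC-like cells, 179 in NW and 74 in ABX, had 9 of 10 ratios above 0, with a median of 0.15. In those cells 2 of the 10 genes were called higher, against 12.9% of all genes. The share of all genes called higher was 15.6% in gdT-like, 7.92% in B cell-like and 17.8% in Treg-like cells, and 11.9% were called lower in cDC2-like cells, each against 1 of the 10 genes.

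Nlrc5 leaned to ABX outside these cells too. Its log2 ratio was above 0 in 10 of the 12 cell types with enough UMIs, among them 0.26 (0.09 to 0.43) in macrophage-like cells, 0.26 (0.04 to 0.49) in cDC1-like cells and 0.25 (0.03 to 0.47) in ILC2-like cells, and was -0.30 (-0.64 to 0.04) in Treg-like cells. Tapbp was above 0 in 4 of 14 cell types, with its lowest ratio, -0.19 (-0.31 to -0.07), in ILC2-like cells. Erap1 in macrophage-like cells was -0.19 (-0.33 to -0.05). Psmb9 in endothelial-like cells fell outside the counts, on 26 NW and 21 ABX UMIs, and had a log2 ratio of -1.39 (-2.29 to -0.51).

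Macrophage-like cells were examined by cluster, the largest type, with 45.2% of NW cells and 38.3% of ABX cells. In all 11 clusters with at least 50 cells in each library H2-K1 had over 100 UMIs, and its log2 ratio was above 0 in 10, between -0.11 and 0.25, with an interval above 0 in 7. The cluster led by Ccl12, Cx3cr1 and Il1b had the highest level of 8 of the 10 genes by the mean of both libraries, such as H2-K1 at 1650 and 1793 CPM, Tap1 at 86.6 and 64.9 CPM and Nlrc5 at 33.6 and 40.6 CPM. The cluster led by Ednrb, Cd209f and Lyve1 had the lowest H2-K1, at 1035 and 1038 CPM, and the lowest Tap1, at 28.5 and 24.7 CPM. It made up 11.99% of macrophage-like cells in NW and 5.32% in ABX. The cluster led by Ccl12 made up 2.85% and 4.04%. The cluster led by Ccl8, Cyr61 and Cxcl13, with H2-K1 at 1554 and 1634 CPM, made up 5.14% and 8.66%. Not all clusters went this way. The one led by C4b, Fcna and Cd209d, low in H2-K1 at 1106 and 1218 CPM, made up 15.5% and 16.6%. The part of cluster makeup in the H2-K1 ratio of macrophage-like cells was not tested. H2-D1 and B2m were flatter, with 1.23-fold each between the highest and the lowest cluster, and H2-D1 was lowest in the cluster led by Ccl12. That cluster also held the most UMIs of interferon-stimulated genes, 1123 and 990 CPM.

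The 10 genes were then read across macrophage-like cells grouped by their UMIs of 22 interferon-stimulated genes outside the pathway (such as Ifit1, Isg15 and Irf7) per 10000 UMIs of the cell. In NW, 93 cells held over 30 and 3508 held up to 10, and in ABX 109 and 2562 did, with median depths of 5956 and 6734 UMIs in NW and 3542 and 5124 in ABX. Tap1 stood at 35.4 CPM in the lower and 131 in the higher group of NW, 3.71-fold apart, and at 38.2 and 146 in ABX, 3.81-fold apart. Nlrc5 differed 4.75-fold in NW (16.7 and 79.1 CPM) and 4.16-fold in ABX (19.0 and 79.2 CPM). Psmb8 differed 2.31-fold and 2.12-fold, Psmb9 2.41-fold and 2.59-fold, and Tapbp 1.94-fold and 2.20-fold. The heavy and light chains differed less, H2-K1 1.34-fold and 1.42-fold, B2m 1.58-fold and 1.55-fold, and H2-D1 1.15-fold and 1.10-fold. Erap1 did not separate the groups beyond counting error in either library.

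Of the 10 genes, 8 in each library were at least 25% higher in the group with over 30 UMIs, against 17.6% of 9719 genes in NW and 18.9% of 8975 genes in ABX. The 8 left out H2-D1 in both libraries, Erap1 in NW and Tap2 in ABX, and Erap1 in ABX counted with an interval that included 0. Tap2 stood at 106 CPM (80.7 to 137) in the higher group of NW on 59 UMIs and at 60.0 CPM (39.8 to 86.7) in that of ABX on 28 UMIs. In the cells without any UMI of the 22 genes H2-K1 was 1127 CPM in NW and 1194 in ABX, with median depths of 3494.5 and 2786 UMIs per cell. In cDC1-like cells only 12 NW and 7 ABX cells held over 30 such UMIs, and 7 and 4 of the 10 genes were higher there, against 27.5% and 42.3% of all genes.

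**Figure D3:**
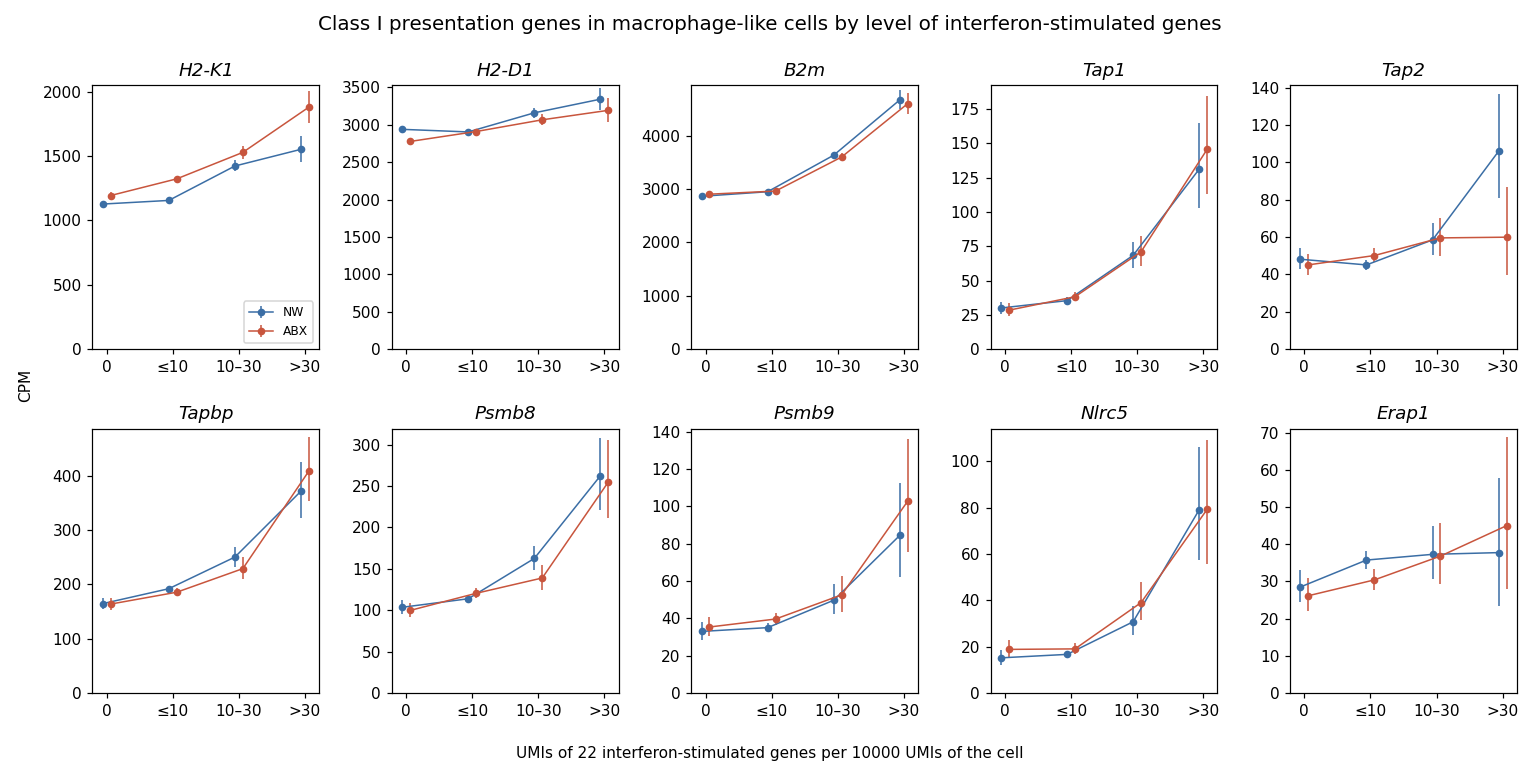
Each panel plots 1 gene in macrophage-like cells, with CPM on the vertical axis against 4 ranges of UMIs of 22 interferon-stimulated genes per 10000 UMIs of the cell on the horizontal axis. Points are NW (blue) and ABX (red) sums over the cells of a range and bars are exact Poisson 95% intervals. Tap1 and Nlrc5 are highest in the range over 30 in both libraries, at 131 and 79.1 CPM in NW, while H2-D1 is nearly flat.

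The balance of inducible and constitutive proteasome subunits was read as the share of Psmb8 in the UMIs of Psmb8 and Psmb5, and of Psmb9 in those of Psmb9 and Psmb6. Because capture differs between genes, these shares are compared between cell types and not between pairs. Psmb9 took 82.9% (81.5 to 84.2) of its pair in NW and 81.6% (79.9 to 83.3) in ABX cDC1-like cells, against 39.4% (37.7 to 41.1) and 42.6% (40.5 to 44.8) in macrophage-like cells. Psmb8 took 93.8% and 95.4% of its pair in mature DC-like cells, 90.6% and 91.9% in cDC1-like cells, 75% and 77.1% in macrophage-like cells and 67.6% and 66.2% in endothelial-like cells. Psmb10, the remaining inducible subunit, did not follow this order: with Psmb7 as its partner it took 42.5% and 45.6% in cDC1-like cells and 43.1% and 44.1% in macrophage-like cells, and was highest in NK-like cells at 67.2% and 63.6%. In endothelial-like cells Psmb9 took 49.1% (35.1 to 63.2) in NW, on 26 Psmb9 and 27 Psmb6 UMIs. In ABX it took 28.8% (18.8 to 40.6), on 21 and 52 UMIs. These intervals overlapped, which does not show that the difference lies within counting error.

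**Figure D4:**
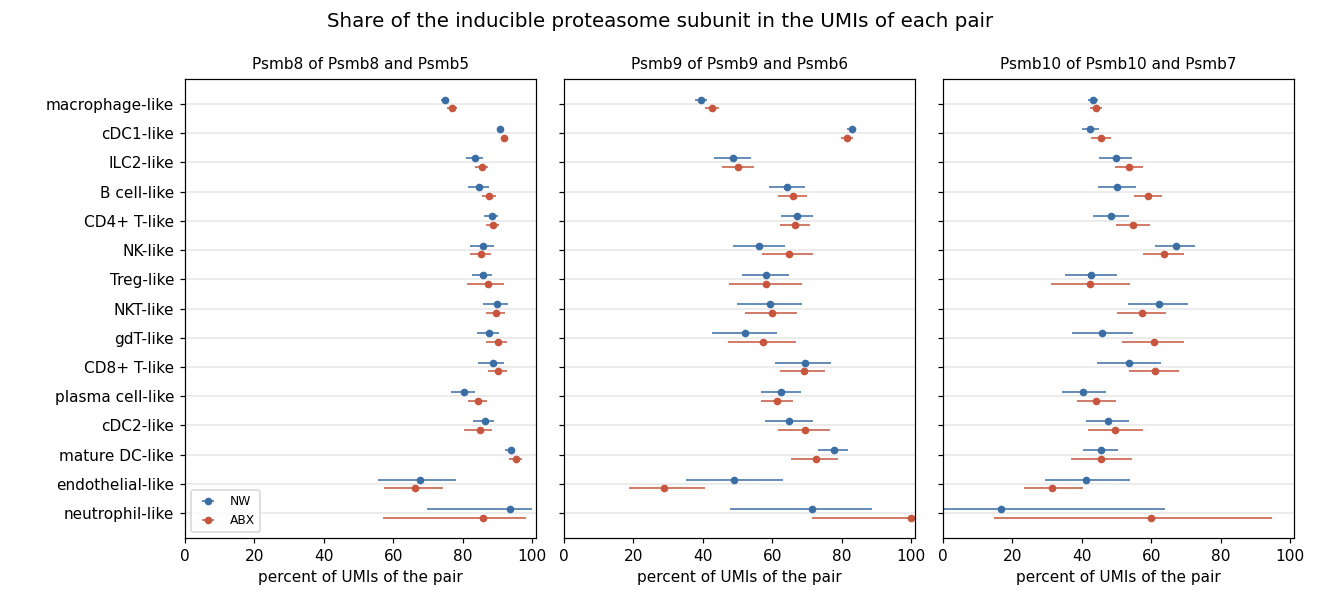
Each panel plots the percent of UMIs taken by the inducible subunit of 1 pair (Psmb8 with Psmb5, Psmb9 with Psmb6, Psmb10 with Psmb7) against the 15 cell types. Points are NW (blue) and ABX (red) libraries and bars are exact binomial 95% intervals. Psmb9 stands at 39.4% in NW macrophage-like cells and at 82.9% in NW cDC1-like cells, and the bars of neutrophil-like cells are widest.

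Related genes were counted by list in macrophage-like cells, where 11.8% of 11098 genes were called higher in ABX and 5.3% lower. Of the class I heavy chains of other loci, 9 of 16 had enough UMIs, 3 were higher and 1 lower, from H2-Q6 at 18.1 and 31.8 CPM (log2 ratio 0.81) to H2-T24 at 5.26 and 3.76 CPM (-0.48). Of the 7 loading chaperones none was higher and 3 were lower, with a median log2 ratio of -0.27 against 0.02 over all genes. Their lowest was Pdia3, the disulfide isomerase of the loading complex, at 451 and 313 CPM (-0.53, interval -0.57 to -0.49), and their highest Tapbpl (0.06). All 5 genes of the immunoproteasome and its activator list stayed short of a call, from Psme1 (0.01) to Psme2 (-0.07), as were all 3 constitutive subunits, from Psmb6 (-0.02) to Psmb5 (-0.14).

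Of 15 regulators, 2 were higher in ABX macrophage-like cells and none lower, with Socs1, a brake on cytokine signalling, at 3.25 and 6.03 CPM (log2 ratio 0.89) and Ifnar1, an interferon receptor chain, at 85.6 and 81.6 CPM (-0.07) at the ends. Of 21 interferon-stimulated genes with enough UMIs, 5 were higher and 2 lower, from the chemokine Cxcl9 at 4.46 and 9.48 CPM (1.09) to the GTPase Gbp2 at 15.5 and 10.3 CPM (-0.59). Of 7 class II genes, 2 were higher, with a median of 0.29 and with H2-Eb1 at 4862 and 6211 CPM (0.35) as the highest. The class II genes of other cell types went in both directions. All 7 were called lower in ABX ILC2-like cells, against 10.1% of all genes there, with a median log2 ratio of -0.54, and C1qa in these cells stood at 8.25% of its macrophage-like level in NW and 5.72% in ABX, beside the different cluster makeup given above. In B cell-like cells 4 of 7 were called higher, against 7.92% of all genes, with a median of 0.33 and a lower share of the Vpreb3 clusters in ABX. In NK-like cells 4 of the 5 with enough UMIs were called higher, against 8.24%, with a median of 0.53. C1qa in NK-like cells stood at 6.26% of its macrophage-like level in NW and 7.55% in ABX. The cluster led by Klra8, Gzma and Klra4 made up 75.9% of NK-like cells in NW and 63.1% in ABX. The part of either in the class II values was not tested.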

How the data were processed

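Single cells were captured on BD Rhapsody with a whole transcriptome library and antibody tags (AbSeq), 1 library each for NW and ABX. The deposited tables hold UMI counts per cell and gene, and of antibodies, made by the authors with the BD pipeline; the submitters' processing notes name mm10, R 3.6.0 and Seurat 3.0.1. The counts were not normalized. The tables held 17662 NW and 17785 ABX barcodes with 79855126 and 64801767 gene UMIs.

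Cells were clustered with Seurat 5.3.0 (R 4.3.3) on 2000 variable genes without the 85 member and pathway genes, 30 gene components and 8 antibodies, at resolution 0.6, and each cluster was split again at 0.3. A name needed at least 3 markers and 50% of a type's list; these rules were adjusted after the clusters were seen. Scrublet's own threshold marked 2.76% of NW and 0.00786% of ABX cells, so predicted doublets were kept and an alternative left out the top 5% of each library. UMIs were summed per cell type and library and divided by all UMIs of that sum (CPM). Intervals are exact at 95% (Poisson, Clopper-Pearson, conditional ratio) and cover counting error only. A gene was called at a log2 ratio of 0.32 in size with at least 100 UMIs over both libraries. The ratio step was checked on simulated data. The named genes are the 10 members, the highest and lowest gene of each list in macrophage-like cells, and the 5 genes most like H2-K1, Tap1 and Nlrc5. The members, lists and rules were chosen with earlier results of these data known. Alternatives covered scaling, thinning, doublets, mitochondrial limit, clustering, fold and UMI minimum.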

Additional observations from a re-analysis of the deposited data

How the results depend on the processing

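The log2 ratio (ABX over NW) of the 10 genes summed was 0.06 over all cells. It was -0.00131 with the median of all genes set to 0, 0.0391 with cells thinned to 1000 UMIs and 0.0406 as a mean over cells. It was 0.0777 with mitochondrial UMIs up to 10% and 0.0352 without H2-K1, H2-D1 and B2m. Over the 15 named cell types only, with ABX weighted to the NW shares, it was 0.0204, an alternative chosen after seeing the data. In macrophage-like cells it was 0.03, and under the same alternatives 0.00641 (median), 0.0118 (thinned), 0.0130 (mean over cells), 0.0134 (without the 3 chains) and 0.015 without the 5% of cells with the highest doublet scores. These shifts exceed counting error and stay far below the 0.32 of a call. Of the 7 pairs higher in ABX, a fold of 1.5 left 1, and leaving out the highest doublet scores gave 11. The count of lower pairs was 1, and it was 0 at a fold of 1.5, 4 with at least 20 UMIs, 5 with no minimum of UMIs, 2 with the median of all genes set to 0, 5 without the highest doublet scores and 0 at resolution 1.0. The cause was not tested, except that lower minimums add pairs (146 and 150 tested). For the summed genes in the other 14 cell types, 99 of 126 alternative values stayed within counting error, 111 kept their sign and 0 passed the fold. For the 8 called pairs, 63 of 63 kept their sign and 55 stayed past it. Leaving out the barcodes found in both libraries, or T cells with over 2 C1qa UMIs per 10000, both chosen after seeing the data, left 7 higher and 1 lower pair. Without the highest doublet scores neutrophil-like cells numbered under 50 in a library and gave no value. No paired analysis was possible because each condition has 1 library. Depth limits Erap1, Nlrc5, Tap1, Tap2 and Psmb9 most. Each had under 30 UMIs in at least 1 library of neutrophil-like cells and of endothelial-like cells.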

Other observations

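Unnamed clusters with at least 50 cells in each library were left out of the cell types. In the cluster led by Xcl1, Klra9 and Klrc1, H2-K1 stood at 5043 CPM in NW and 5481 in ABX, next to the level of Treg-like cells, and Nlrc5 at 143 and 218 CPM (log2 ratio 0.61, interval 0.14 to 1.09). In the cluster led by Cd209c, Mefv and Grk3, H2-K1 stood at 1445 and 1769 CPM (0.29, 0.19 to 0.40) and Tap2 at 65.0 and 103 CPM (0.67, 0.20 to 1.14). In the cluster led by Mmp12, Gpnmb and Atp6v0d2, Psmb8 stood at 163 and 115 CPM (-0.51, -0.99 to -0.06). In the cluster led by Pclaf, Top2a and Stmn1, H2-K1 stood at 1013 and 1112 CPM (0.13, -0.01 to 0.28) and Tapbp at 238 and 187 CPM (-0.35, -0.69 to -0.01).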
